A study of Hordeum vulgare with 12 samples.

Results

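In the barley inflorescence, 143 of the 29014 genes in the deposited expression table (0.493%) had a mean that stood high in the mutant at stage W2.0 and lay close together in the other 3 groups. They were chosen on the authors' 4 group means, taken as log2(FPKM + 1), where FPKM is the reads of a gene scaled by its length and by the depth of the library. A gene was included when its mean in the mutant at W2.0 was at least 1 above both the mutant at W3.5 and wild type (WT) at W2.0. In addition, WT had to differ by less than 1 between the stages, and the genotypes by less than 1 at W3.5. All 4 contrasts were therefore used in the selection, and the differences between groups given below describe the selected genes and are no test of them. Of the 19367 genes at 1 FPKM or more in a group, the 143 genes made up 0.738%.

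RNA came from whole inflorescences of cultivar Golden Promise, a spring barley, and each library pooled 15 to 20 spikes. Mutant and WT plants were each sampled at both stages, with 3 libraries in each of the 4 groups, which are called mutant W2.0, mutant W3.5, WT W2.0 and WT W3.5. All were grown under normal conditions. Neither the mutated gene nor the allele is stated by the labels, and the series title speaks of FASCIATED EAR genes and of the size of the inflorescence meristem. In whole inflorescences, a change in the number of cells of a type and a change in RNA per cell cannot be told apart.

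The inflorescence meristem is the dome of dividing cells at the tip of the young spike. It renews itself while it gives off the spikelet meristems that will bear the florets. In maize, mutants named fasciated ear have enlarged and flattened inflorescence meristems, and several of the genes involved act in receptor signalling that restrains stem cell number. The deposited identifiers are not paired with gene names, products or sequences in the sources used here, so the genes are given by identifier and their roles are not stated. For the same reason the tissue could not be checked against marker genes.

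Across the 143 genes the median of the authors' means was 10.9 FPKM in mutant W2.0. It was 2.71 FPKM in WT W2.0, 3.04 FPKM in WT W3.5 and 3.22 FPKM in mutant W3.5. The median log2 difference between mutant and WT W2.0 was 1.47, against 0.0186 over the 19367 genes at 1 FPKM or more. From W2.0 to W3.5 the median of the 143 genes in the mutant changed by -1.32, against -0.0205 over the same 19367 genes. As untransformed ratios of FPKM, the medians were 3.60 for mutant over WT W2.0 and 3.31 for W2.0 over W3.5 in the mutant. The level of the genes varied widely, from 1.15 to 515 FPKM in mutant W2.0. It was under 4 FPKM for 22 genes, from 4 to 16 FPKM for 65, from 16 to 64 FPKM for 40 and higher for 16.

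**Figure D1:**
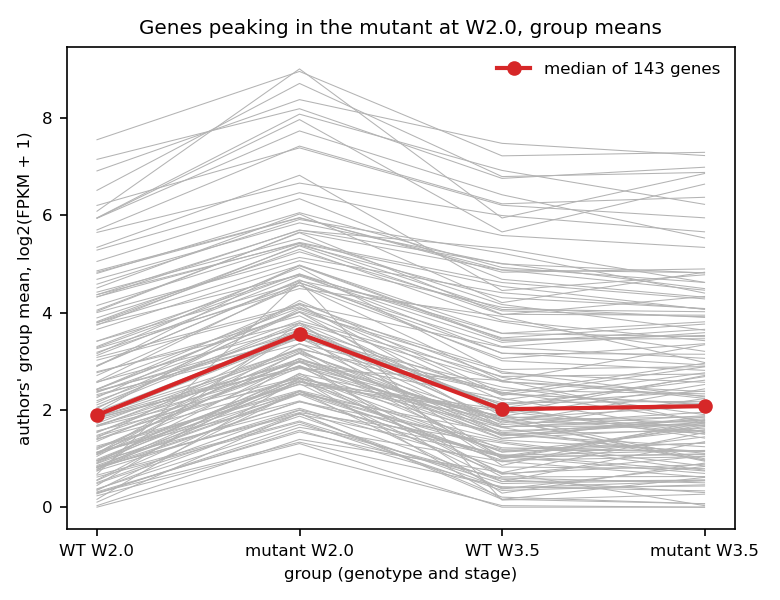
Authors' group means of the 143 selected genes, as log2(FPKM + 1), in each of the 4 groups. Grey lines are single genes and the red line is their median, which stands at 10.9 FPKM in mutant W2.0 and between 2.71 and 3.22 FPKM in the other groups. The shape was set by the selection.

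The rule set no limit on the difference between mutant W2.0 and WT W3.5. On the log2 scale that difference was at least 1 for 110 genes and smaller for 33, with a median of 1.35 and a lowest value of 0.24. The mean in WT was higher at W3.5 than at W2.0 for 62.9% of the selected genes and for 57.2% of the genes at 1 FPKM or more. At W3.5 the mean was higher in the mutant than in WT for 49.7% and 42.3% of them.

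The 10 genes with the highest mean in mutant W2.0 lay at 167 FPKM or more. HORVU3Hr1G117440 on chromosome 3H led them, with 515 FPKM in mutant W2.0, 66.9 FPKM in WT W2.0, 60.7 FPKM in WT W3.5 and 115 FPKM in mutant W3.5. Its level in mutant W2.0 was 4.47 times that of its next highest group. HORVU5Hr1G093770 on 5H stood at 497 FPKM in mutant W2.0, against 187, 149 and 156 FPKM in WT W2.0, WT W3.5 and mutant W3.5. Both remained well expressed in every group, so that their peak was an increase over a high base level.

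HORVU2Hr1G115360 on 2H stood at 419 FPKM in mutant W2.0, against 90.5, 110.3 and 117 FPKM in WT W2.0, WT W3.5 and mutant W3.5. HORVU5Hr1G093700 on 5H reached 332 FPKM, and its next highest group was WT W3.5 with 178 FPKM. HORVU6Hr1G073520 on 6H, at 269.9 FPKM, likewise had WT W3.5 next, with 120.5 FPKM against 60.8 FPKM in WT W2.0. HORVU1Hr1G065620 (1H, 292 FPKM) had WT W2.0 next, at 141 FPKM, and HORVU2Hr1G126130 (2H, 249.7 FPKM) mutant W3.5, at 98.9 FPKM. HORVU4Hr1G066270, HORVU4Hr1G057910 and HORVU7Hr1G101790 closed the list with 212, 171 and 167 FPKM. Single libraries were not searched for in these 10 genes, which lie above the limit of the search described below, and their means have no error.

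By the size of the peak the order was different. HORVU2Hr1G029500 on 2H stood at 23.9 FPKM in mutant W2.0, against 0.603, 0.107 and 0.203 FPKM in WT W2.0, WT W3.5 and mutant W3.5. The smaller of its 2 required differences was 3.96 on the log2 scale. It was the single gene above 3. HORVU6Hr1G000510 on 6H followed with 2.48, from 5.26 FPKM in mutant W2.0 against 0.118, 0.119 and 0.0507 FPKM in WT W2.0, WT W3.5 and mutant W3.5. HORVU2Hr1G042960 on 2H rose to 12.9 FPKM from 0.672 FPKM in WT W2.0, and stood at 2.24 FPKM in mutant W3.5.

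The other members of this group of 10 were HORVU3Hr1G117440, HORVU6Hr1G027190, HORVU6Hr1G001100, HORVU1Hr1G048530, HORVU1Hr1G002090, HORVU6Hr1G073520 and HORVU2Hr1G115360. Their smaller required difference lay between 1.83 and 2.15. Over all 143 genes it had a median of 1.22. It was at least 1.5 for 34 genes and at least 2 for 7, so most of the set lay within 0.5 of the limit.

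The limits fell among genes of near-equal values. HORVU4Hr1G005320, HORVU2Hr1G029350 and HORVU1Hr1G067490 were included with differences of -1.001, -1.002 and -1.003 between W3.5 and W2.0 in the mutant. HORVU0Hr1G014400, HORVU4Hr1G087520 and HORVU2Hr1G031310, at -0.998, -0.998 and -0.996, fell just short of that limit. For mutant against WT W2.0, HORVU3Hr1G049640, HORVU2Hr1G089540 and HORVU5Hr1G066920 lay inside with 1.002, 1.008 and 1.014. HORVU7Hr1G098210, HORVU1Hr1G026110 and HORVU3Hr1G092250 lay outside with 0.999, 0.982 and 0.981. HORVU7Hr1G098210 is listed next to a selected gene, HORVU7Hr1G098220.

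For the change of WT between the stages, the nearest genes inside were HORVU6Hr1G073520, HORVU7Hr1G041300 and HORVU2Hr1G089540, at 0.98, 0.97 and -0.95. HORVU2Hr1G114230, HORVU4Hr1G010770 and HORVU6Hr1G000780 lay outside at -1.04, -1.05 and -1.05. For the genotypes at W3.5, HORVU2Hr1G126130, HORVU7Hr1G098220 and HORVU6Hr1G000960 lay inside at 0.98, -0.95 and 0.94. HORVU5Hr1G059890, HORVU6Hr1G000720 and HORVU0Hr1G007480 lay outside at -1.02, 1.07 and 1.07. HORVU0Hr1G007480 reached 318 FPKM in mutant W2.0 against 41.3 FPKM in WT. Of the 4 limits, the fall in the mutant alone kept out 159 genes and the difference from WT W2.0 alone kept out 115, while the limits on WT and on W3.5 alone kept out 9 and 17.

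The same rule with its peak moved to another group gave 171 genes in WT W2.0, 18 in WT W3.5 and 15 in mutant W3.5. Genes that peaked in 1 group alone were thus listed mostly for W2.0, in both genotypes.

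The single libraries behind the means were examined next. Each mean combines the whole read counts of 3 libraries, scaled by their depths and by the length of the gene. Depths and reads were solved from the printed digits, which gave 63298092 to 75896357 reads per library. Reads were accepted for a gene where 1 solution stood out under both of a pair of prior assumptions on the spread between libraries. Reads were recovered in this way for 4304 of the 7811 genes searched, and for 31 of the 143 selected genes. Of the other 112 selected genes, 52 lay outside the search, which took genes with a lowest group mean under 4 FPKM, and 60 were searched and not accepted. The libraries of a group carry the letters A, B and C in order of decreasing depth, since the values do not show which replicate each one is. The 31 genes had means of 1.53 to 8.51 FPKM in mutant W2.0, and the other 112 a median of 15.9 FPKM, so the libraries describe the lower end of the set. Which genes are recovered depends on the assumptions, and the criterion used was the third tried and was chosen after values of these genes had been seen. Main counts are also given under the criterion that takes the libraries of a group to be alike, which accepted 10 of the selected genes. The 2717 recovered genes that reached 1 FPKM in 3 or more libraries, called tested genes here, serve as the background. This filter favours genes high in several libraries, and 23 of the 31 selected genes pass it, so shares are also given over the 2144 recovered genes with a mean of 1 FPKM or more in mutant W2.0, a condition that all 31 meet.

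Among the 31 genes, the mutant W2.0 libraries were uneven. In 13 genes 1 library stood alone, with the others under 50% of it. In 15 genes 2 libraries were within 2-fold of each other at the top, and in 3 genes all 3 were. Of the tested genes, 22.0%, 38.6% and 39.3% had 1, 2 and 3 libraries within 2-fold of the highest. Over the 2144 genes the shares were 20.4%, 37.5% and 42.2%, and of the 23 selected genes among the tested ones 9, 11 and 3 did. The median coefficient of variation (SD over mean, n = 3) in mutant W2.0 was 82.9% over the 31 genes, 42.3% over the tested genes and 40.4% over the 2144 genes, and 78.1% over the 23 selected genes that were tested. Under the criterion that takes the libraries of a group to be alike, 10 genes were recovered, of which 4, 3 and 3 had 1, 2 and 3 libraries near the highest, and the median coefficient was 67.0% against 33.5%. That criterion gives little weight to uneven libraries. In simulated reads with a dispersion of 2.0 it recovered 25 of 200 genes, against 158 with the criterion used here, and all of these were right under both. At a dispersion of 0.02 it recovered 187 of 200 genes and the criterion used here 165, so the criterion used here left out more of the even genes. Of the genes tested under the criterion of alike libraries, 11.6%, 35.6% and 52.9% had 1, 2 and 3 libraries near the highest. Genes picked for a high mean of 3 libraries will include those with 1 high library, and the part this played was not tested.

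**Figure D2:**
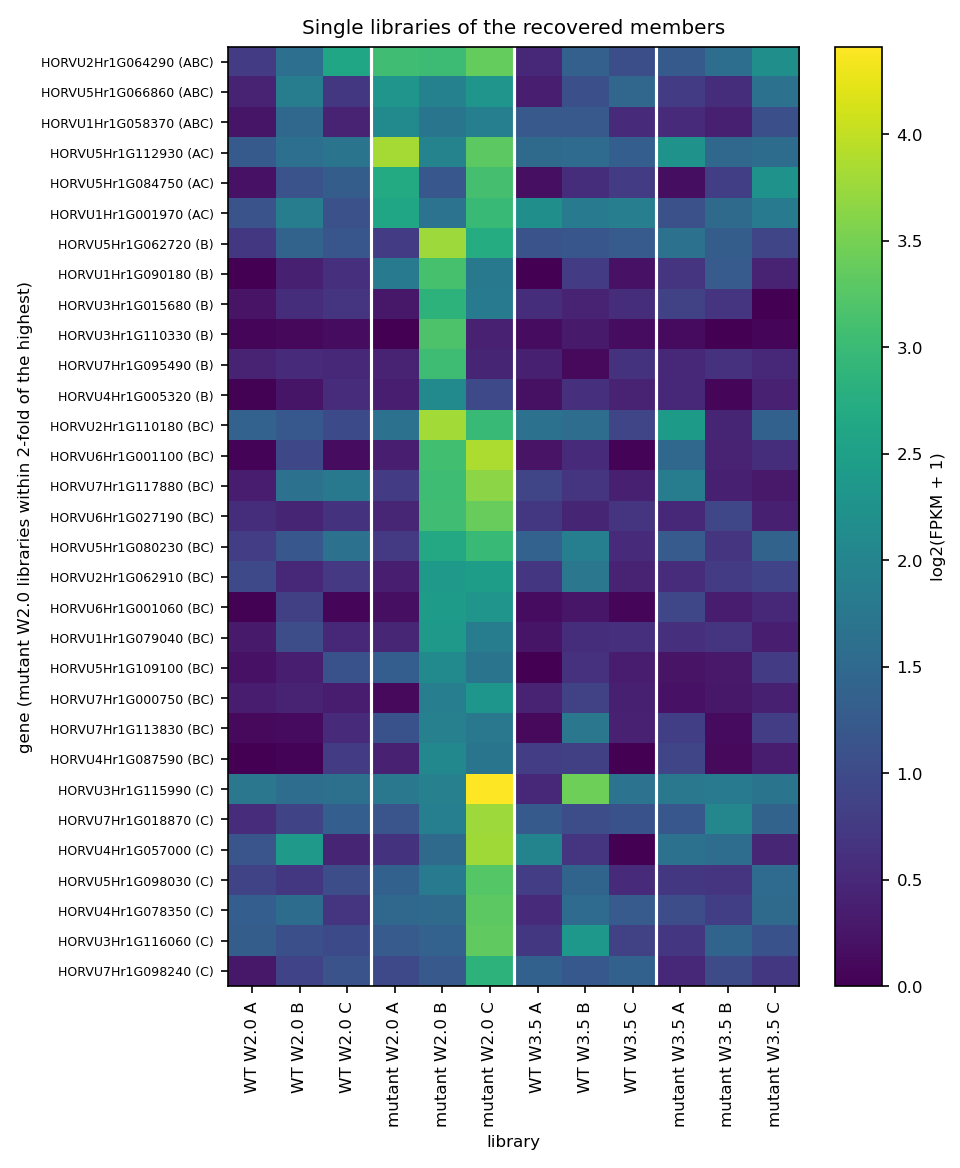
FPKM in each of the 12 libraries, as log2(FPKM + 1), for the 31 selected genes whose libraries were recovered. Letters after a gene name the mutant W2.0 libraries within 2-fold of the highest, and the bright cells lie mostly in libraries B and C, with A lowest in 24 of the 31 genes.

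The high values fell mostly in libraries B and C. Library A was the lowest of the 3 in 24 of the 31 genes, in 43.9% of the tested genes and in 46.2% of the 2144 genes. Library C was the highest in 16 genes (51.6%), B in 12 (38.7%) and A in 3 (9.68%), against 40.5%, 31.6% and 27.9% of the tested genes. Set against the 9 libraries of the other groups, C stood above all of them in 30 of the 31 genes, B in 22 and A in 8, and in 17.9%, 13.5% and 9.2% of the tested genes. High values in this group were part of the selection, so nothing is read from that excess. The median log2 difference from the mean of WT W2.0 was 0.12 in library A, 1.5 in B and 1.71 in C, and -0.06, 0.04 and 0.07 over the tested genes. With the criterion of alike libraries, A was lowest in 4 of the 10 recovered genes, against 44.8% of the tested genes, so the low position of A in most genes rests on genes recovered under the wider criterion. C was the highest in 6 of those 10 genes and A and B in 2 each. Of the genes tested there, the shares for C, A and B were 37.9%, 27.6% and 34.5%. C, B and A stood above the 9 other libraries in 9, 5 and 6 of the 10 genes, against 15.9%, 14.4% and 9.33%.

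**Figure D3:**
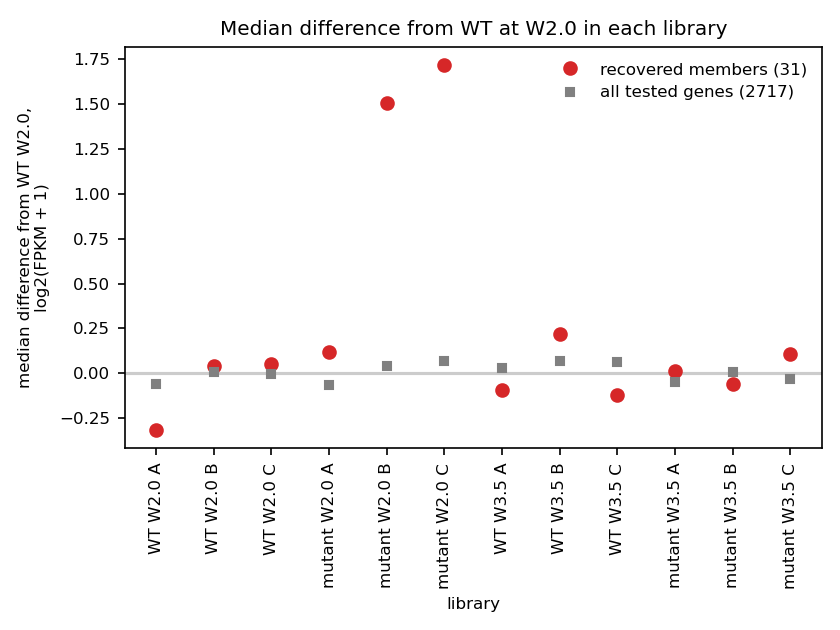
Median difference of each library from the mean of WT W2.0, as log2(FPKM + 1), over the 31 selected genes (red) and the 2717 tested genes (grey). Mutant W2.0 libraries B and C stand at 1.5 and 1.71 and library A at 0.12, while every other library lies between -0.31 and 0.22.

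Values of the 8 recovered genes with the highest mean show the kinds of pattern behind a peak. HORVU3Hr1G115990 on 3H (8.51 ± 10.2 FPKM, SD, n = 3, in mutant W2.0) stood at 2.42, 2.81 and 20.3 FPKM in mutant W2.0 libraries A, B and C. It stood at 2.37, 1.99 and 2.10 FPKM in WT W2.0, at 0.431, 9.83 and 2.19 FPKM in WT W3.5, and at 2.39, 2.57 and 2.26 FPKM in mutant W3.5, each in the order A, B, C. Its peak was that of library C, and WT W3.5 library B was the next highest.

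HORVU5Hr1G112930 on 5H had 13.1, 2.95 and 8.87 FPKM in mutant W2.0 libraries A, B and C, with a mean of 8.31 ± 5.10 FPKM (SD, n = 3). It had 1.39, 2.06 and 2.24 FPKM in WT W2.0, 1.89, 1.9 and 1.49 FPKM in WT W3.5, and 3.84, 1.78 and 1.96 FPKM in mutant W3.5. Here A and C were high, and B was below the highest mutant library of W3.5.

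HORVU2Hr1G064290 on 2H was even, with 7.36, 7.10 and 9.38 FPKM in mutant W2.0 libraries A, B and C and a mean of 7.95 ± 1.24 FPKM (SD, n = 3). WT W2.0 stood at 0.708, 2.06 and 5.09 FPKM, WT W3.5 at 0.404, 1.54 and 1.08 FPKM, and mutant W3.5 at 1.38, 2.02 and 3.57 FPKM. All 3 mutant W2.0 libraries were above the 9 others, and the spread lay in WT W2.0 instead.

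HORVU2Hr1G110180 on 2H stood at 2.14, 12.9 and 6.96 FPKM in mutant W2.0, at 1.62, 1.32 and 0.993 FPKM in WT W2.0, at 2.15, 1.98 and 0.894 FPKM in WT W3.5 and at 4.28, 0.375 and 1.60 FPKM in mutant W3.5. HORVU5Hr1G062720 on 5H stood at 0.693, 12.6 and 5.65 FPKM in mutant W2.0, at 0.634, 1.65 and 1.27 FPKM in WT W2.0, at 1.18, 1.26 and 1.40 FPKM in WT W3.5 and at 2.12, 1.46 and 0.888 FPKM in mutant W3.5. In both, library B was the highest and library A lay within the range of the other groups.

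HORVU6Hr1G001100 on 6H stood at 0.287, 7.41 and 13.6 FPKM in mutant W2.0, at 0.0321, 0.945 and 0.11 FPKM in WT W2.0, at 0.173, 0.455 and 0.0364 FPKM in WT W3.5 and at 1.78, 0.339 and 0.498 FPKM in mutant W3.5. HORVU6Hr1G027190 on 6H stood at 0.389, 7.36 and 9.49 FPKM in mutant W2.0, at 0.492, 0.369 and 0.563 FPKM in WT W2.0, at 0.651, 0.365 and 0.608 FPKM in WT W3.5 and at 0.429, 0.908 and 0.306 FPKM in mutant W3.5. In both genes, B and C were far above every other library and A was at the level of the other groups. HORVU7Hr1G117880 on 7H had the same order, with 0.719, 7.21 and 11.6 FPKM in mutant W2.0. Its other libraries lay at 0.269, 2.16 and 2.43 FPKM in WT W2.0, at 0.902, 0.587 and 0.305 FPKM in WT W3.5 and at 2.66, 0.314 and 0.237 FPKM in mutant W3.5.

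The extreme cases, named after their values were seen, rested on library B. HORVU3Hr1G110330 on 3H had 0, 8.11 and 0.324 FPKM in mutant W2.0 libraries A, B and C, from 0, 1007 and 36 reads, and at most 0.250 FPKM in the 9 other libraries. HORVU7Hr1G095490 on 7H had 0.335, 7.27 and 0.370 FPKM, and at most 0.566 FPKM elsewhere. Without library B neither gene met the rule.

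Leaving out 1 mutant W2.0 library at a time ended the membership of 28 of the 31 genes in at least 1 case. The rule was met by 27 genes without library A, by 18 without B and by 15 without C. This held for 2.02%, 1.18% and 0.552% of the tested genes, and for 3.73%, 1.96% and 1.12% of the 2144 genes. Of the 10 genes accepted under the criterion of alike libraries, the rule was met by 6, 8 and 4. Of the genes tested there, 0.553%, 0.346% and 0.173% met it. Leaving out the highest library lowers the mean on which a gene was selected, so nothing is read from these losses. The rule was met by HORVU6Hr1G001100, HORVU6Hr1G027190 and HORVU2Hr1G064290 whichever of these 3 libraries was left out. The first 2 of them also met it without any 1 of all 12 libraries, while HORVU2Hr1G064290 failed without WT W2.0 library A or WT W3.5 library B. Without WT W2.0 library A the rule was met by 20 of the 31 genes.

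All 3 mutant W2.0 libraries were above the 3 of WT W2.0 in 10 of the 31 genes, and this held for 8.58% of the tested genes. They were above the 3 of mutant W3.5 in 6 genes, against 6.55% of the tested genes. They were above all 9 other libraries in 5 genes, against 0.736%. Over the 2144 genes these shares were 11.1%, 8.21% and 1.07%, and under the criterion of alike libraries 5, 4 and 3 of 10 selected genes met the 3 conditions. The 5 of the 31 genes above all 9 other libraries were HORVU2Hr1G064290, HORVU1Hr1G090180, HORVU5Hr1G066860, HORVU1Hr1G058370 and HORVU5Hr1G109100. Since the genes were chosen for high means in this group, nothing is read from the excess over the background. HORVU5Hr1G066860 had 3.91, 2.82 and 3.91 FPKM in mutant W2.0 and at most 2.60 FPKM elsewhere. HORVU1Hr1G058370 had 3.28, 2.27 and 2.74 FPKM and at most 1.80 FPKM elsewhere. These 2 and HORVU2Hr1G064290 were the genes whose 3 libraries lay within 2-fold of each other.

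Without mutant W2.0 library A, both remaining libraries were above the 9 others in 21 of the 31 genes, and without B in 8. This held for 4.86% and 2.13% of the tested genes, and for 7.5% and 3.1% of the 2144 genes. Under the criterion of alike libraries this held for 4 and 5 of 10 genes, against 5.18% and 2.14% of the genes tested there. With 2 libraries in place of 3 this condition is easier to meet. High values in this group were part of the selection, so nothing is read from the excess.

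Limma was fitted to the 2717 tested genes, with a Benjamini-Hochberg adjusted p under 0.05 as the call. Of these genes 1.25% were called higher in mutant W2.0, among them 1 of the 23 selected genes tested, HORVU1Hr1G090180. With the criterion of alike libraries 3 of 9 were called, against 1.52% of the genes tested there. HORVU1Hr1G090180 had 2.49, 7.78 and 2.42 FPKM in mutant W2.0 and 0, 0.304 and 0.505 FPKM in WT W2.0, from 29 to 104 reads in each mutant library. For a fall from W2.0 to W3.5 in the mutant, 0.0% of the tested genes were called, and for an interaction in which the mutant effect was lower at W3.5 also 0.0%. In either direction, 1 gene passed for the stage in the mutant and 0 for the interaction with limma, with 249 and 185 genes at an unadjusted p under 0.05. Limma-voom called 0 genes in both, with 230 and 144 at an unadjusted p under 0.05. The rule had used all of these contrasts, and the calls are given as a description of the selected genes. Over the 23 tested genes the median fitted log2 difference was 1.19 for mutant against WT W2.0, -1.14 for the stage in the mutant and -1.16 for the interaction, against 0.04, -0.05 and -0.09 over all tested genes.

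The genes that peaked in WT W2.0 by the same rule had a still more uneven group. Of the 88 of them with recovered libraries, 72.7% had WT W2.0 library B alone at the top. This held for 9.02% of the tested genes and for 13.0% of the 1968 recovered genes with a mean of 1 FPKM or more in WT W2.0. The median coefficient of variation of the 88 genes in WT W2.0 was 143%. In mutant W2.0, the selected genes had B alone at the top in 19.4%, C alone in 22.6% and B with C in 38.7%, against 6.0%, 10.6% and 19.1% of the tested genes. All 3 libraries lay within 2-fold of each other in 3 of the 31 genes and in 5 of the 88. Under the criterion of alike libraries, 10 genes that peaked in WT W2.0 were accepted and 3 had library B alone at the top. This held for 3.39% of the genes tested there. Of the 10 selected genes 1 had B alone, 3 had C alone and 1 had B with C. In mutant W2.0 the shares of those tested genes were 3.11%, 4.53% and 18.9%. Both sets were chosen for a high mean in their peak group, so nothing is read from the excess over the tested genes. Libraries were recovered for 31 of 143 and 88 of 171 genes, and the others are not described by these shares.

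**Figure D4:**
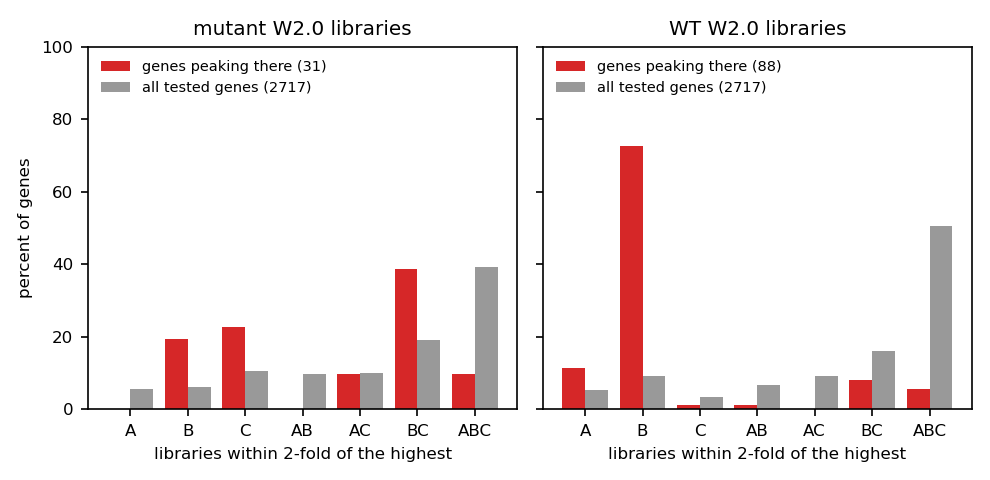
Share of genes, in percent, by which libraries of the peak group lie within 2-fold of the highest, for genes that peak in mutant W2.0 (left, 31 genes) and in WT W2.0 (right, 88 genes), in red, and for the 2717 tested genes in grey. On the left B with C leads with 38.7%, on the right B alone with 72.7%.

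Libraries outside the peak group, named after their values were seen, also differed for these genes. WT W2.0 library A was under 50% of the mean of B and C in 19 of the 31 genes, in 21.0% of the tested genes and in 20.9% of the 2144 genes. Under the criterion of alike libraries this held for 4 of 10 selected genes, against 11.1% of the genes tested there. The rule required the mean of WT W2.0 to lie at least 1 below that of mutant W2.0, so nothing is read from this excess. The median log2 difference of WT W2.0 library A from the mean of WT W2.0 was -0.31 over the 31 genes and -0.06 over the tested genes. WT W3.5 library B, at 0.22 and 0.07 by the same measure, was more than 2 times the mean of A and C in 16 of the 31 genes. This held for 12.1% of the tested genes and 13.2% of the 2144 genes. Under the criterion of alike libraries it held for 6 of 10 selected genes, against 5.67%. Over the tested genes the median ratio of WT W3.5 library B to the mean of A and C was 1.01. HORVU7Hr1G113830 on 7H had 0.0833, 2.37 and 0.317 FPKM in WT W3.5 libraries A, B and C, next to 1.16, 2.79 and 2.41 FPKM in mutant W2.0. HORVU3Hr1G116060 on 3H had 0.648, 4.13 and 0.824 FPKM in WT W3.5 and 1.42, 1.61 and 9.08 FPKM in mutant W2.0. The coefficient of variation of the 31 genes was above that of the tested genes in each of the other groups too, with medians of 54.3% against 34.5% in WT W2.0, 60.0% against 31.9% in WT W3.5 and 63.9% against 34.5% in mutant W3.5. The tested genes were not matched to the 31 genes in level in these groups. There the medians of the 31 genes in single libraries were 0.342 to 1.06 FPKM, and the part that low level played in these coefficients was not tested.

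For some genes the libraries had more than 1 solution. HORVU6Hr1G000510, the gene with the second largest peak, could be solved as 0, 15.6 and 0.174 FPKM in mutant W2.0 libraries A, B and C, or as 5.505, 6.86 and 3.41 FPKM. The values do not settle whether 1 library or all 3 peaked, and its replicate error is unknown. HORVU6Hr1G000960 had 3 solutions, with the highest value in library C in 2 of them and in A in the third. HORVU4Hr1G067070 had 2 solutions, with library A the highest in both. HORVU5Hr1G066950 had 2, with B the lowest in both. HORVU7Hr1G097730 had 1, which was not accepted, at 10.7, 11.2 and 5.76 FPKM in mutant W2.0 libraries A, B and C, all within 2-fold. Library A was thus not the lowest in any solution of these last genes. It was the lowest in a solution of HORVU6Hr1G000510 and in a solution of HORVU6Hr1G000960. HORVU2Hr1G029500, with the largest peak, had 161 solutions for mutant W2.0. Its WT W2.0 libraries were solved at 1.55, 0.0621 and 0.198 FPKM.

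The selected genes were found on all chromosomes. Chromosome 7H held 26 of the 143 genes (18.2%) and 13.9% of the genes at 1 FPKM or more. For 1H these shares were 10.5% and 11.9%, for 2H 16.1% and 16.3%, for 3H 13.99% and 14.7%, for 4H 10.5% and 11.8%, for 5H 16.1% and 15.7%, and for 6H 12.6% and 11.2%. The 3 genes without an assigned chromosome made up 2.1%, against 4.52%.

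Some were neighbours. Of the 143 genes, 20 (13.99%) stood next to another in the order of the table's identifiers, in 9 runs. Of the genes that peaked by the same rule in another group, 17 of 171 (9.94%) did for WT W2.0, 4 of 15 (26.7%) for mutant W3.5 and 0 of 18 for WT W3.5. Of the other genes at 1 FPKM or more, 0.811% stood next to a selected gene. The longest run held HORVU3Hr1G065610, HORVU3Hr1G065620, HORVU3Hr1G065630 and HORVU3Hr1G065640 on 3H. In mutant W2.0 these stood at 16.1, 11.8, 15.3 and 15.8 FPKM, and in WT W2.0 at 4.91, 4.95, 4.39 and 3.09 FPKM. At W3.5 they lay at 6.12, 4.01, 5.91 and 4.98 FPKM in WT and at 6.41, 3.38, 3.82 and 3.88 FPKM in mutant plants. The 4 neighbours lay within 2-fold of each other in every group. The counting of reads that match several genes is not described, and whether these genes are near-identical copies that share reads was not tested.

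The other runs were pairs. On 6H, HORVU6Hr1G001060 and HORVU6Hr1G001100 stood next to each other, and both were recovered. HORVU6Hr1G001060 had 0.135, 4.39 and 3.92 FPKM in mutant W2.0 libraries A, B and C. In WT W2.0 it had 0.0170, 0.787 and 0.0582 FPKM, with library B the highest as in its neighbour, and in mutant W3.5 it had 0.915, 0.268 and 0.404 FPKM, with A the highest as in its neighbour. The pair on 7H, HORVU7Hr1G113830 and HORVU7Hr1G113850, stood at 2.12 and 11.03 FPKM in mutant W2.0. Pairs could differ widely in level, as HORVU2Hr1G072180 and HORVU2Hr1G072210 on 2H, with means of 4.21 and 65.5 FPKM in mutant W2.0. HORVU3Hr1G110320, next to HORVU3Hr1G110330, had 49.0 FPKM there and 15.6, 14.6 and 14.4 FPKM in WT W2.0, WT W3.5 and mutant W3.5.

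The remaining pairs were HORVU2Hr1G089440 with HORVU2Hr1G089540, HORVU5Hr1G066860 with HORVU5Hr1G066920, HORVU7Hr1G098220 with HORVU7Hr1G098240 and HORVU7Hr1G117800 with HORVU7Hr1G117850. With a wider limit of 10 identifier steps, 35 genes had another selected gene nearby, in 14 clusters of at most 4 genes. One of these held HORVU5Hr1G093700 and HORVU5Hr1G093770, both among the 10 genes of highest level, with HORVU5Hr1G093860 and HORVU5Hr1G093960 at 5.30 and 16.9 FPKM in mutant W2.0.

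The genes outside the set whose profile over the 4 means was most like its mean profile were HORVU7Hr1G088290, HORVU7Hr1G116810, HORVU6Hr1G053910, HORVU5Hr1G105480 and HORVU6Hr1G088370. Likeness was measured by Pearson's r over 4 columns, which ran from 0.99968 to 0.99996 for them, and 85 outside genes reached 0.99. Of the 143 selected genes, 24 reached 0.99. The peaks of the outside genes named here were small. HORVU7Hr1G116810 had the largest, with 2.16 FPKM in mutant W2.0 and 0.744, 0.812 and 0.809 FPKM in WT W2.0, WT W3.5 and mutant W3.5, a log2 difference of 0.86 from WT W2.0. With 4 points that share their libraries with the selected genes, r is a description of shape.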

How the data were processed

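RNA-seq was made from 12 barley inflorescence samples, 3 in each of 4 groups given by the sample labels. The submitters' processing notes list HISAT2 2.0.0, HTSeq 0.11.2 and FastQC. For the genome build and the annotation, the entry is not given in the sources used here. The deposited table holds 1 FPKM value per gene and group, the authors' mean over 3 libraries. This unit was read from the values.

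The selected genes, lists and comparisons were chosen with earlier results of these data known. The genes were selected on log2(FPKM + 1) of the deposited means. Genes named are the 10 of highest mean, the 10 of largest smaller difference, the 8 recovered genes of highest mean, the 3 nearest each limit on both sides, runs of neighbours and the 5 outside genes most alike. Classes of gene product and marker genes had been planned and could not be applied, as 0 identifiers matched the RefSeq table. The plan's limma test for a normalized unit was used.

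Depths were fitted by least squares without imposing whole numbers (python 3.11.15, numpy 2.4.6, numba 0.67.0). All 12 came out 0.001 to 0.033 from a whole number. Genes were searched where the lowest mean was under 4 FPKM and the highest at least 0.5 FPKM, over lengths of 100 to 5000 bases. A solution needed a probability above 0.99 under a wide prior on the spread between libraries and again under a flat one. Of 3 acceptance criteria tried, this was the last. It was chosen after the selected genes' counts under the others had been seen, because the second, with a narrow prior, removed uneven genes in simulation. With columns shuffled, 0 of 400 genes were recovered, against 220 unshuffled. On simulated data at 4 dispersions of 0.02 to 2.0, 158 to 165 of 200 genes were recovered and all were right, although these were simulated at levels of genes already recovered.

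Limma 3.58.1 (R 4.3.3) was fitted with a trend to log2(FPKM + 1) as 1 model of 4 group means over 12 libraries, for recovered genes that reached 1 FPKM in 3 or more libraries. Such log2 differences understate changes of low genes. Depths ran from 63298092 to 75896357 reads per library. Alternatives were another pseudocount, no filter, limma-voom, RLE size factors, each library left out, and both other acceptance criteria.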

Additional observations from a re-analysis of the deposited data

How the results depend on the processing

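The number of selected genes was 198 and 100 with pseudocounts of 0.5 and 2, of which 129 and 91 were among the 143. It was 138 after rescaling the columns to a median log2 ratio of 0, 137 with a minimum of 2 FPKM, and 34 with a threshold of 1.5. The recovered genes that meet the rule numbered 15 to 31 when 1 library was left out, against 31. Those with all mutant W2.0 libraries above the others numbered 5 to 21 against 5, and 5 with RLE size factors. Calls of mutant against WT at W2.0 numbered 45, in both directions, 25 to 78 without 1 library, and 14 with limma-voom. Library A of mutant W2.0, when left out, gave the 78, and libraries B and C of WT W2.0 gave 25 and 29. Calls for the stage in the mutant numbered 1, 0 to 5 without 1 library, and 0 with limma-voom. Calls for the interaction numbered 0, and 0 to 1 without 1 library.

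The acceptance criteria were added after seeing the data. With the wide prior alone, 32 selected genes were recovered and met the rule, 5 of them with all 3 libraries above the others, and the calls numbered 53, 1 and 0 for mutant against WT, stage in the mutant and interaction. With the narrow prior too, 10 were recovered and met the rule, 3 of them with all 3 libraries above the others, and the calls numbered 60, 2 and 0. Of 9 selected genes tested there, 3 were called higher in the mutant at W2.0, HORVU1Hr1G090180, HORVU2Hr1G064290 and HORVU5Hr1G112930, where 1.52% of the tested genes were. The rule had used this contrast, so nothing is read from that excess. The share of recovered genes that failed the rule without 1 of the mutant W2.0 libraries was 28 of 31, 29 of 32 and 9 of 10 under the criterion used, the wide prior alone and the narrow prior. WT W3.5 library B was more than 2 times the mean of A and C in 16, 17 and 6 of them. In mutant W2.0, 1 library alone was near the highest in 13 of 31, 13 of 32 and 4 of 10 genes. All 3 were near it in 3, 4 and 3 of these genes, and library A was the lowest in 24, 24 and 4. The share of even genes and the position of library A therefore depend on which genes the criterion accepts.

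No paired analysis was possible because the columns are group means and the recovered libraries carry no replicate numbers. Recovery fell with the level of a gene. Of the searched genes, 92.1% were recovered where the highest mean was 0.5 to 1 FPKM, 22.1% at 4 to 8 FPKM and 0.9% above 16 FPKM, and genes with a lowest group mean of 4 FPKM or more were not searched. The mutant W2.0 libraries are therefore not known for most of the selected genes. The p-values measure the spread between these libraries, whose source plants the labels do not describe beyond the pooled spikes.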
